A study of Mus musculus with 16 samples.

Results

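Acetylation of lysine 27 on histone H3 (H3K27ac) was compared between 2 stages, E13.5 and E12.0, in mouse cochlear progenitors that give rise to the organ of Corti. It rests on the 4 H3K27ac CUT&RUN libraries among the series' 16 libraries, with 2 per stage, chosen by antibody and age. FACS took Sox2-GFP+ cells at the earlier stage and p27-GFP+ cells at the later one, so age and sorting reporter change together and cannot be told apart. Replicate 1 of E12.0 was made with the KAPA HTP kit, and the other 3 libraries with the Accel 2S Plus kit, whose adapters carry molecular identifiers. All 4 used the Active Motif antibody and DNA purified by phenol-chloroform extraction. Nothing in the labels ties a replicate to its own litter or animals, so spread and p-values here may be technical. RNA-seq (2 libraries per stage), ATAC-seq (3 per stage) and Tead CUT&RUN (2 at E12.0) of cells with the same sort at each age served as readouts that the H3K27ac comparison does not use.

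H3K27ac is laid down by the acetyltransferases p300 and CBP on nucleosomes beside active promoters and enhancers. CUT&RUN releases the fragments around an antibody-bound target with a tethered nuclease. In the prosensory domain of the cochlear duct, Sox2, Jag1 and Gata3 mark the progenitors. These cells leave the cell cycle as Cdkn1b, the gene of the cyclin-dependent kinase inhibitor p27, comes on, and Atoh1 then directs hair cell fate. Yap, held back by the Hippo kinases, acts through Tead proteins on genes of growth.

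Few of the stage-specific intervals lay on promoters, and the sequences below come from these few. Each sequence below runs from 250 bases before a RefSeq start to 50 after it (GRCm38.p6), 5′ to 3′ on the gene's strand, with matches to CCAAT or to its reverse complement ATTGG in capitals. CCAAT is the core of the box bound by the factor NF-Y. F3 and Six4 belong to the 22 gene lists used here. Pwp1 and Vash2 are shown as strongly ranked promoters of the 2 stages. F3 (chr3:121723287-121723586, plus strand) encodes tissue factor and is a known Yap target. Pwp1 (chr10:85871581-85871880, plus strand) encodes a factor of ribosomal RNA production. The windows of F3 and Pwp1 each overlapped a region, merged from all the lists, that both E13.5 libraries and neither E12.0 library held. Six4 (chr12:73113376-73113675, minus strand) is a homeobox factor of otic and other placodes. Vash2 (chr1:190979247-190979546, minus strand) encodes a tubulin carboxypeptidase. The windows of Six4 and Vash2 each overlapped a merged region that both E12.0 libraries and neither E13.5 library held. Whether the interval of each library reaches the window itself was not computed.
F3 promoter: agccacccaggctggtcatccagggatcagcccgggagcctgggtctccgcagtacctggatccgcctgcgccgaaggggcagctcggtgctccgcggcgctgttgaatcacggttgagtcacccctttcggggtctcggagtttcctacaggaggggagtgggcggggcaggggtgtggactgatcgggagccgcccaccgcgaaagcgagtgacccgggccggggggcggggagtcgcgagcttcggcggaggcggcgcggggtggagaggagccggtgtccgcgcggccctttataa
Pwp1 promoter: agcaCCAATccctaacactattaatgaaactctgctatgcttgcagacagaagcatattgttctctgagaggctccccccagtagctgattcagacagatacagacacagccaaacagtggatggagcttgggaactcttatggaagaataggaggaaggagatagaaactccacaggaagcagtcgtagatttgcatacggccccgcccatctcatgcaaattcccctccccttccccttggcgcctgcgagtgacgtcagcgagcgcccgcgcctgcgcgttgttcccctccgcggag
Six4 promoter: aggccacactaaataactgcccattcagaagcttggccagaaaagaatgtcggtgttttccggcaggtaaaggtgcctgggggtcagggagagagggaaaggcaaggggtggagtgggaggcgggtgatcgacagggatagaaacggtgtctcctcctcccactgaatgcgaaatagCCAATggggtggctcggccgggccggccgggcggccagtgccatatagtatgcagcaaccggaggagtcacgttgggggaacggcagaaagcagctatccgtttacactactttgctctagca
Vash2 promoter: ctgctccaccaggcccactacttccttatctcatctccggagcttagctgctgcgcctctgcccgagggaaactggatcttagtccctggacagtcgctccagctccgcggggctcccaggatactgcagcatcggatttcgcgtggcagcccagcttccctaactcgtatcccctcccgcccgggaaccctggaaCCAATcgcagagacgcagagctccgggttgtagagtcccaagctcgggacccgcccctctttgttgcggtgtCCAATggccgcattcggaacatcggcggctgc

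The F3 window held no match, those of Pwp1 and Six4 held 1 each and that of Vash2 held 2. Six4 and Vash2 each had another RefSeq start whose window, not printed, overlapped the same region. These other windows, at chr12:73113196-73113495 for Six4 and chr1:190978949-190979248 for Vash2, held no match. So the counts for these genes depended on the start chosen. The other Vash2 window held 1 copy of the Tead core given below. CCAAT, on either strand, was in 38.2% of all 21263 RefSeq promoters of 300 bases. It was in 34 of the 78 promoters on E13.5-only regions (43.6%), in 22 of the 69 on E12.0-only regions (31.9%) and in 935 of the 2014 on regions of all 4 libraries (46.4%). The Tead core GGAATG, on either strand, was in 14.5% of the E12.0-only, 12.8% of the E13.5-only and 13.6% of all promoters. Bases were also counted. Median GC content was 58.0% at E12.0-only, 59.8% at E13.5-only, 59.7% at common and 56.3% at all promoters. A match is a run of letters and not a measured binding site.

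The lists differed in length and in quality before any stage was compared. They held 64887 and 92839 intervals at E12.0 (replicates 1 and 2) and 118017 and 76022 at E13.5, covering 31.0, 26.4, 42.9 and 19.8 Mb. The share of intervals with a −log10 q of 2 or more was 73.5% and 59.4% in the replicate 1 libraries of E12.0 and E13.5, against 15.9% and 26.3% in the replicate 2 libraries. Intervals overlapping ATAC intervals of their own stage were 52.9% and 48.8% in the replicate 1 libraries and 21.3% and 22.0% in the replicate 2 libraries. So both replicate 2 libraries stood apart from both replicate 1 libraries, across the stages. Read depth behind the lists is unknown, since the files give intervals and no read totals. The interval with the highest fold in all 4 lists (33.0 to 44.3), at chrX:143482881-143483256, 35335 bp from Pak3, was also in both Tead lists. Of the 20 intervals with the highest fold in each list, 7 to 13 were in both Tead lists.

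Merging the 4 lists gave 267936 regions, and a library was taken to hold a region that it overlapped by 1 bp or more. A single library held 220870 of them (82.4%). The E13.5-only class, held by the whole E13.5 pair and neither library of E12.0, had 3743 regions (1.4% of all), and the E12.0-only class had 2351 (0.877%). All 4 libraries held 5266 regions, called common here. No test stands behind the class sizes: 2 libraries against 2 cannot go below a two-sided exact permutation p of 0.333.

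Libraries of the same stage did not share the most, though the pattern was not the same for every library. E13.5 replicate 2 held 12723 regions together with its stage mate, against 9888 and 9788 with replicates 1 and 2 of E12.0. The pair with the most regions of its own was replicate 1 of E12.0 with replicate 1 of E13.5, which alone held 13954 regions, more than either same-stage pair. Replicate 2 of E12.0 and replicate 1 of E13.5 alone held 4984, replicate 2 of both stages 3224, and replicate 1 of E12.0 with replicate 2 of E13.5 held 1404. Shared base pairs, as a percentage of those covered by either library, were 25.4% for the replicate 1 pair across stages and 10.7% within E12.0. They were 9.15% for E12.0 replicate 2 with E13.5 replicate 1 and 5.67% for E12.0 replicate 1 with E13.5 replicate 2. Within E13.5 they were 5.12%, and the replicate 2 pair across stages had the lowest share, 3.97%. Over the 5266 common regions Spearman's rho of fold was 0.563 for the replicate 1 libraries across stages and 0.424 for E12.0 replicate 2 with E13.5 replicate 1. It was 0.343 within E12.0 and 0.238 within E13.5. The replicate 2 libraries across stages had 0.188, and E12.0 replicate 1 with E13.5 replicate 2 had 0.160. These values are a description, since these regions share libraries. With the strongest 64887 intervals kept in each list, the class sizes changed order, to 1785 E13.5-only and 2427 E12.0-only regions. The order of the 2 stage-only classes thus changed when the lists had equal length. Without E12.0 replicate 1, the KAPA library, the classes held 6562 and 68056 regions, but a single library then defined E12.0-only, and leaving out any library enlarged its own stage's class in this way, so these counts say nothing of the kit.

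**Figure D1:**
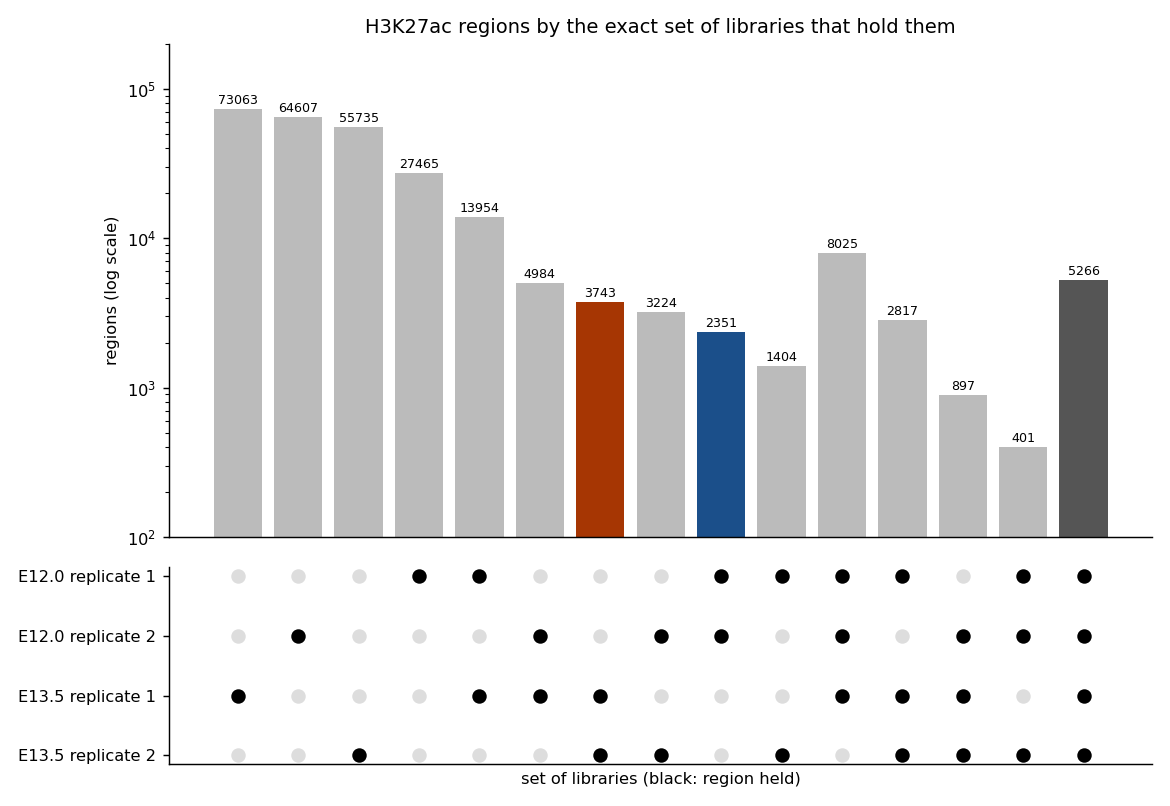
Number of merged H3K27ac regions (log axis) held by each exact set of the 4 libraries, marked by black dots below. The E13.5-only class (3743 regions, red) and the E12.0-only class (2351, blue) are smaller than the set shared by the replicate 1 libraries of the 2 stages (13954), and the common class (dark grey) has 5266.

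Stage-only regions were narrower than common regions and lay farther from gene starts. Median width was 458 bp for E12.0-only, 410 bp for E13.5-only and 1262 bp for common regions. Merged width rose with the number of lists joined. Medians were 210 to 248 bp for regions of 1 library and 640 to 956 bp for those of 3. Regions held only by 2 libraries of different stages had medians of 399.5 to 620 bp, so the narrower width was not particular to stage-only regions. The median distance to the nearest protein-coding start (or, for the 4395 of 21887 genes without a listed start, the nearer end of the gene) was 48928 bp for E12.0-only, 87706 bp for E13.5-only and 18642 bp for common regions. Regions within 1 kb of a start were 123 of the E12.0-only class (5.23%), 180 of the E13.5-only class (4.81%) and 1888 of the common class (35.9%). The 2 stage-only classes were also of middling strength. The median percentile rank of fold within a list, where 100 is the strongest interval, was 45.9 and 53.8 in the E12.0 libraries for E12.0-only regions and 46.2 and 51.0 in the E13.5 libraries for E13.5-only regions. For common regions the 4 medians ran from 72.0 to 91.4. Within the common regions the covered length was a median of 1036 and 981 bp in the replicate 1 libraries of E12.0 and E13.5 and 486 and 360 bp in the replicate 2 libraries.

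Open chromatin, measured by ATAC, was listed more often at E13.5 for both stage-only classes. Of the E13.5-only regions 29.8% overlapped an interval in all 3 E13.5 ATAC libraries and 7.99% in all 3 at E12.0. Of the E12.0-only regions 44.2% did so at E13.5 and 11.6% at E12.0. So the E12.0-only regions were, by this count, open more often at E13.5 than at their own stage. Having no interval in the E13.5 lists does not show that acetylation was absent there. The ATAC lists differ in length in the same direction, with 112621 to 143817 intervals at E12.0 and 208061 to 226496 at E13.5, and the part of list length in these shares was not tested. Among common regions 73.5% were open in all E12.0 and 95.6% in all E13.5 libraries. Regions open in all 3 E13.5 and no E12.0 library made up 8.98% of the E13.5-only class (336 regions) and 9.32% of the E12.0-only class (219). None of either class was open in all 3 E12.0 and no E13.5 library.

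Tead intervals, measured at E12.0 only, overlapped the classes unequally. At least 1 Tead library overlapped 38.7% of E12.0-only, 13.1% of E13.5-only and 91.3% of common regions. Most of this came from Tead replicate 2, whose list had 58410 intervals against 18250 in replicate 1. Both Tead lists overlapped 32 E12.0-only regions (1.36%), 16 E13.5-only regions (0.43%) and 493 common regions (9.36%). Tead and E12.0 H3K27ac share stage and sort, and replicate 1 of both the KAPA kit, so what sets these shares apart was not tested.

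**Figure D2:**
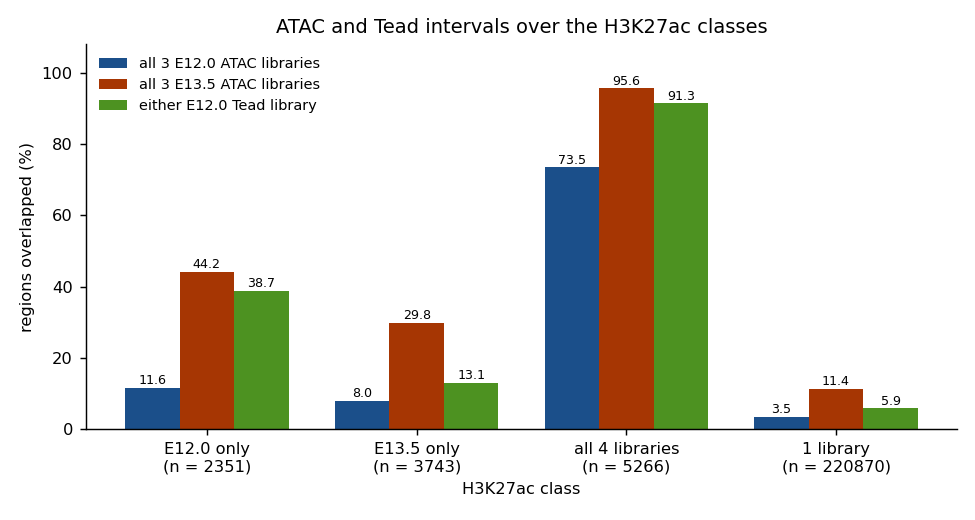
Percentage of each H3K27ac class that overlapped an interval in all 3 E12.0 ATAC libraries (blue), all 3 E13.5 ATAC libraries (red) or either E12.0 Tead library (green). Every class has a taller red than blue bar, and Tead reaches 38.7% of E12.0-only against 13.1% of E13.5-only regions.

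Common regions were found at many prosensory and epithelial genes. A common region was nearest, within 50 kb, to 11 of 22 prosensory genes and 7 of 15 epithelial genes (46.7%), against 14% of all 21887 protein-coding genes. The shares were 7 of 18 BMP and activin genes (38.9%), 7 of 19 Wnt genes (36.8%), 8 of 24 Hippo and Yap genes (33.3%) and 6 of 21 Yap targets (28.6%). FGF genes had 5 of 16, supporting cell genes 4 of 16, cell cycle inhibitors 3 of 13, Hedgehog genes 2 of 9 and cell cycle genes 5 of 23. Other lists were near or below the background: otic factors 2 of 14 (14.3%), Notch genes 2 of 16 (12.5%) and immediate early genes 1 of 13 (7.69%). No hair cell gene of 13, no nonsensory duct gene of 12, no neuronal gene of 12, no endothelial gene of 9 and no muscle or liver gene of 10 had one. Of the other lists for cells outside the sort, mesenchymal genes had 2 of 12 (Col1a1 and Lum), blood 1 of 9 (Ptprc), and glial and neural crest genes 1 of 11 (Mitf). Of the 21887 protein-coding genes, 3657 had no interval in any of the 4 libraries in their span with 10 kb on each side. Pou3f4, the defining factor of periotic mesenchyme, was among them. In the RNA, Lum, a matrix proteoglycan, was nonetheless at 1246 and 1098 CPM (library-scaled counts) at E12.0 and later, at E13.5, 353 and 449.

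Stage-only regions were nearest to few genes of each list. Across all genes 4.93% were nearest an E12.0-only and 5.86% an E13.5-only region. Prosensory genes had 5 and 3 of 22, Hippo and Yap genes 3 and 4 of 24, Yap targets 3 and 4 of 21, FGF genes 1 and 3 of 16, and BMP and activin genes 1 and 3 of 18, for E12.0-only and E13.5-only in turn. Otic factors had 3 and 2 of 14, supporting cell genes 3 and 1 of 16, nonsensory duct genes 2 and 2 of 12, and hair cell genes 0 and 2 of 13. Otic factors, hair cell, nonsensory duct, neuronal, endothelial, and muscle and liver genes had more members near a stage-only region of at least 1 class than near a common one. Cell cycle genes had none of 23 in either class. Their inhibitors had 0 and 2 of 13, which were Gadd45g and Rb1. The counts are small, and no difference between the 2 classes was tested.

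The 12 strongest E13.5-only regions near listed genes lay by genes of many lists, among them Yap targets, Hippo kinases and FGF genes. The lower of their ranks ran from 91.9 down to 51.0, so the last of them were of middling strength. Atoh1, Fgf9, Gadd45g and Etv5 had the same fold in replicate 1 (3.16), and so the same rank of 56.4. The first lay inside Nt5e, an ecto-nucleotidase listed as a Yap target, at chr9:88332058-88332700, with percentile ranks of 91.9 and 96.5 in the E13.5 libraries. A second in Nt5e, at chr9:88355627-88355840, ranked 78.5 and 92.8. Nt5e RNA was below the expression filter. Stk3, the Hippo kinase Mst2, had a region inside its span at chr15:34904326-34905221, ranked 88.6 and 77.8, that was open in all 3 E13.5 and no E12.0 ATAC libraries. Lats2, the Hippo kinase that phosphorylates Yap, had one at chr14:57720917-57721491, ranked 83.9 and 65.2, that was open at neither stage. Stk3 also had an E12.0-only region, at chr15:35155951-35156337, 69 bp from an end of its span, ranked 18.5 and 96.7 and open in all 6 ATAC libraries. So Stk3 had a region of each class.

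A region 44561 bp from the start of Atoh1, at chr6:64773686-64774139 and in no protein-coding gene span, was held only at E13.5. It ranked 56.4 and 88.8, and was open in all 3 E13.5 and no E12.0 ATAC libraries. With intervals up to 500 bp apart merged, it was no longer E13.5-only. Within 10 kb of Atoh1 the only interval was one of 1179 bp in E12.0 replicate 1, at percentile rank 98.1, which the other E12.0 library did not hold. Fgfr1, the FGF receptor needed for prosensory growth, had an E13.5-only region inside its span at chr8:25527468-25528049, ranked 72.0 in both libraries and held by Tead replicate 2. Fgf9, a ligand of the duct's nonsensory epithelium, had one at chr14:58038402-58038770, 33916 bp away, ranked 56.4 and 72.0. Etv5, a transcriptional effector of FGF signalling, had one ranked 56.4 and 51.0. Neither the Fgf9 nor the Etv5 region was open in any ATAC library.

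The other named E13.5-only regions near listed genes lay by Elavl4, a neuronal RNA-binding protein, at 89.8 and 85.3, in Cdh1, the epithelial cadherin, at 83.3 and 76.7, in Lmx1a, a factor of nonsensory otic fate, at 61.9 and 98.8, and by Gadd45g, a growth arrest gene, at 56.4 and 51.0. The Elavl4, Cdh1 and Gadd45g regions were open in all 3 E13.5 and no E12.0 ATAC libraries. Over all genes the strongest E13.5-only regions were nearest Dnase1l3 (98.4 and 99.6), Col10a1, Gsdmc4, Rhobtb1 and Tekt4. Of these 5 genes, only Rhobtb1 passed the RNA filter. Of all 17 named E13.5-only regions, 11 were open in all E13.5 ATAC libraries, 7 of them in no E12.0 library, and 2 had a Tead interval.

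The 12 strongest E12.0-only regions near listed genes also lay by genes of many lists. The lower of their ranks ran from 79.1 down to 42.6, so the last of them were of middling strength. Six4, Tead1 and Ednrb had the same fold in replicate 2 (2.96), and so the same rank of 44.1. The first lay 27275 bp from Otx2, a homeobox factor of the nonsensory duct, at chr14:48634463-48635459, with ranks of 79.1 and 90.2 in the E12.0 libraries. Tead1, the DNA-binding partner of Yap, had a region inside its span at chr7:112874697-112875543, ranked 71.0 and 44.1 and held by Tead replicate 2. Vgll3, a cofactor that binds Tead, had one 47408 bp away, ranked 74.9 and 76.7. Tgfb2, a growth factor listed as a Yap target, had one at 46.8 and 52.8 that Tead replicate 2 also held, 26165 bp from its start. Nearer to the start, at 6603 bp, Tgfb2 had an E13.5-only region, chr1:186712592-186713230, ranked 34.3 and 27.2. So Hippo pathway genes appear in both classes.

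Mycn, a Myc family factor of proliferation, had an E12.0-only region 8501 bp from its start at chr12:12932913-12933335, ranked 55.4 and 66.9. It had another at chr12:12938893-12939447, ranked 33.9 and 19.2. Both were open in all 3 E12.0 and in 2 E13.5 ATAC libraries and were held by Tead replicate 2. Lin28b, an RNA-binding protein that blocks let-7 maturation, had one inside its span at chr10:45485046-45485347, ranked 42.6 and 66.9, with no ATAC interval at either stage. Six4 was the only one of the 12 with its region on a start, at chr12:73113405-73113868, ranked 89.9 and 44.1 and open in all 6 ATAC libraries. That region overlaps the promoter printed above and lies in the spans of both Six4 and Mnat1. Lgr4, a receptor for R-spondins in Wnt signalling, had one ranked 73.1 and 76.5, and Rorb, a nuclear receptor, one ranked 47.4 and 58.3.

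Markers of other cell types were among the 12 too: Col3a1, a fibrillar collagen of mesenchyme, at 79.1 and 75.6, Tie1, an endothelial receptor, at 60.8 and 96.7, and Ednrb, the endothelin B receptor, at 56.0 and 44.1. The RNA of Tie1 was below the expression filter and that of Col3a1 was 0.688 and 0.942 CPM at E12.0. Over all genes the strongest E12.0-only regions were nearest Oxa1l (97.1 and 94.5), Adnp, Parp1, Pdzk1 and Tex15. Of all 17 named E12.0-only regions, 10 were open in all E13.5 ATAC libraries, 4 in all E12.0 libraries, and 9 had a Tead interval.

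**Figure D3:**
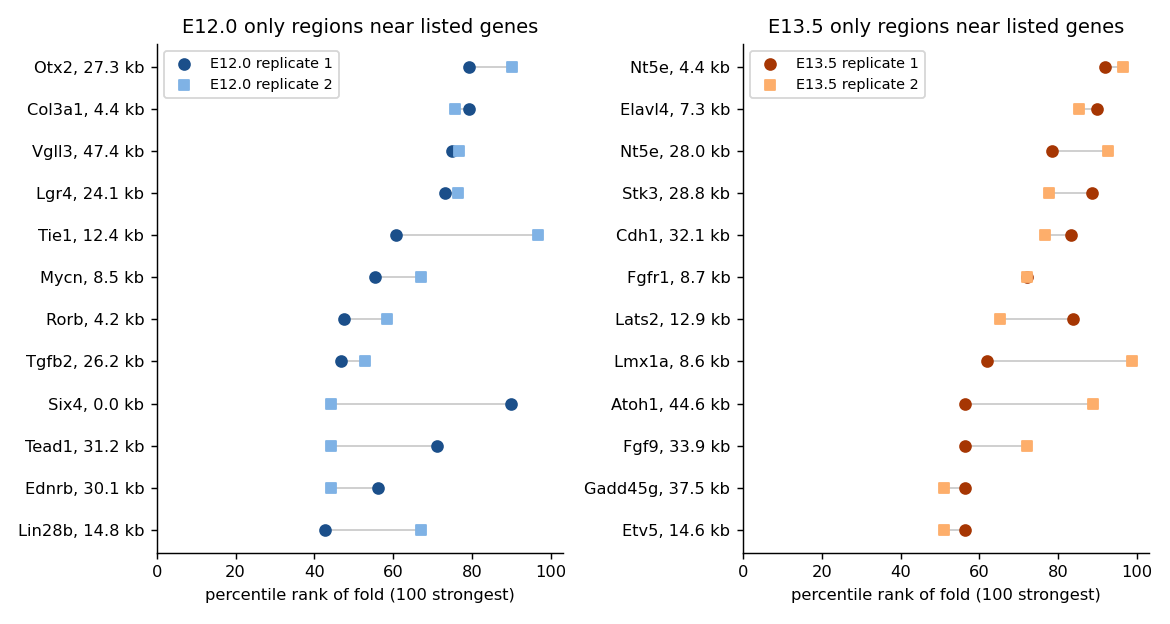
Percentile rank of fold (100 strongest) in each library of the stage, for the 12 named E12.0-only regions (left) and E13.5-only regions (right) near listed genes, with the distance in kb to the start or, where none is listed, to the nearer end of the gene. The first Nt5e region (91.9 and 96.5) and the Elavl4 region (89.8 and 85.3) lie highest on the right, and Six4 and Tie1 at E12.0 and Lmx1a and Atoh1 at E13.5 differ most between the replicates.

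At the reporter locus of the E13.5 sort, several stage-only regions lay together. Cdkn1b itself had common regions on both sides, at chr6:134916703-134917641 and chr6:134927960-134929198. The first of them ranked 73.3 and 66.9 at E12.0 and later, at E13.5, 87.2 and 77.5 in the full lists. The second ranked 92.0 and 44.1 and then 95.4 and 11.4, with overlapping stages. Apold1, an endothelial early response gene, is its neighbour and was chosen for description after the values were seen. It had 4 E13.5-only regions, the most of any gene together with Ccdc192 at E13.5 and Plcb4 at E12.0. The strongest, at chr6:134983752-134984639, ranked 88.6 and 78.4 and was open in all 6 ATAC libraries. The others were weak in at least 1 library, with lower ranks of 0.0462, 0.0723 and 1.12. Apold1 also had 2 common regions that ranked lower at E13.5 in the full lists on average. That at chr6:134961845-134962739 went from 74.6 and 96.7 to 2.50 and 1.49, and that at chr6:134950988-134952398 from 96.7 and 82.0 to 87.0 and 35.96, the latter with overlapping stages. Regions by Apold1 thus differed in both directions. Gpr19, an orphan receptor on the other side of Cdkn1b, had an E13.5-only region at chr6:134887039-134888690, ranked 91.0 and 89.9.

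RNA in this neighbourhood did not move as a block. Cdkn1b was at 7.70 and 8.59 CPM at E12.0 and later, at E13.5, 229 and 182, or 4.65 higher in log2 units (SE 0.30, edgeR's adjusted p = 6.095e-06). Apold1 was at 0.138 and 0.589 CPM at E12.0, which is 1 and 5 reads, and at 32.0 and 48.5 at E13.5, or 6.71 higher in log2 units (SE 0.60, edgeR's adjusted p = 2.445e-05). Ddx47, a helicase gene beyond Apold1, was between 68.1 and 105 CPM in all 4 libraries and was not called. Gpr19 was at 13.9 and 7.18 CPM at E12.0 and later, at E13.5, 20.4 and 17.3, 0.84 higher in log2 units (edgeR's adjusted p = 0.139). So Cdkn1b and Apold1 were called higher, while Gpr19, which also had an E13.5-only region, and Ddx47 did not pass the test. The E13.5 cells were sorted by p27-GFP, the Cdkn1b reporter, and the E12.0 cells by Sox2-GFP. Higher Cdkn1b RNA at E13.5 therefore cannot be told apart from the sort.

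Over all tested genes RNA differed widely between the stages, which sets the background for any class. edgeR called 3579 of 15982 genes higher at E13.5 (22.4%) and 3761 lower (23.5%). Of 961 tested genes nearest an E13.5-only region, 202 were higher (21.0%) and 192 lower (20.0%), with a median log2 fold change of 0.09 against 0.05 over all genes. Of 854 nearest an E12.0-only region, 182 were higher (21.3%) and 225 lower (26.3%), with a median of −0.06. These shares are near the background. Where an E12.0-only region lay within 1 kb of the start, 15 of 96 tested genes were higher (15.6%) and 33 lower (34.4%). For the 143 genes with an E13.5-only region within 1 kb, 29 were higher (20.3%) and 32 lower (22.4%). With limma on log2(TPM + 1) the median of all genes moved to 0.76 and the calls to 6821 higher and 2101 lower, and 13 of the 96 genes were then lower and 36 higher.

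Single genes near E13.5-only regions showed both directions. Atoh1 rose from 0.275 and 0.942 CPM to 2.38 and 5.04, by 2.57 on the log2 scale (SE 0.90, edgeR adjusted p = 0.0387), from 2 and 8 to 50 and 119 reads. This call was lost under DESeq2, and also when either replicate 1 of E12.0 or replicate 2 of E13.5 was left out. Fgfr1 rose from 64.2 and 66.5 to 156 and 112 CPM, Stk3 from 36.5 and 29.6 to 56.4 and 67.7, and Gadd45g from 21.5 and 21.4 to 35.8 and 51.5. Fgf9 fell from 171 and 98.2 to 38.8 and 47.8 CPM, a change of −1.64 in log2 units (SE 0.31, edgeR's adjusted p = 0.00186). The calls of Fgfr1 (without replicate 1 of either stage), Stk3 (without replicate 2 of either stage) and Gadd45g (without either E12.0 library or E13.5 replicate 2) were lost with 1 library left out, at log2 fold changes of 0.74 to 1.02. In each of these 5 called genes the E12.0 and E13.5 libraries did not overlap. This adds no evidence beyond the call, and the share over all tested genes was not counted. Lats2, Etv5, Cdh1, Lmx1a, Elavl4 and Rhobtb1 were not called, with log2 fold changes from −0.41 to 0.28. Of the 16 genes nearest the named E13.5-only regions, 11 were tested, of which 4 rose and 1 fell. Over all tested genes 22.4% were called higher and 23.5% lower.

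Of the genes named for E12.0-only regions, 5 fell and 3 rose. Otx2 fell from 20.4 and 51.8 to 5.95 and 4.41 CPM, a change of −2.80 in log2 units (SE 0.49, edgeR's adjusted p = 0.00116). Tead1 fell from 78.5 and 127 to 38.0 and 26.4 CPM, Tgfb2 from 2402 and 1138 to 476 and 478, Adnp, a homeobox protein that remodels chromatin, from 65.2 and 180 to 20.8 and 21.2, and Six4 from 267 and 355 to 166 and 174. Rorb rose from 158 and 146 to 691 and 431 CPM, by 1.88 on the log2 scale (SE 0.29, edgeR adjusted p = 0.000533). Lgr4 rose from 59.0 and 44.9 to 80.9 and 98.2, and Lin28b from 135 and 128 to 236 and 202. The calls of Lgr4 (without either E12.0 library or E13.5 replicate 2), Lin28b (without either E12.0 library or E13.5 replicate 1) and Six4 (leaving out E12.0 replicate 2, or replicate 1 of E13.5) were lost with 1 library left out. For these 8 genes, all called, the 2 stages did not overlap, which adds no evidence beyond the call. Mycn, with 2 E12.0-only regions, was at 71.8 and 117 CPM at E12.0 and later, at E13.5, 138 and 171 and was not called (edgeR adjusted p = 0.0648). It was called higher with a replicate block (log2 fold change 0.75), with no filter on low counts (0.79), without E12.0 replicate 2 (1.10) and with limma on log2(TPM + 1) (1.56). Of the 17 named genes, 15 were tested, beside background shares of 22.4% higher and 23.5% lower over all tested genes. Vash2, whose promoter is printed above, fell from 159 and 113 to 42.0 and 45.1 CPM (log2 fold change −1.65, edgeR adjusted p = 0.00079), while F3 and Pwp1 were not called. F3 also had an E12.0-only region, at chr3:121712040-121712483. With limma on log2(TPM + 1), Tead1 (−0.014), Six4 (−0.040), Adnp (−0.82) and Vash2 (−0.77) were no longer called.

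**Figure D4:**
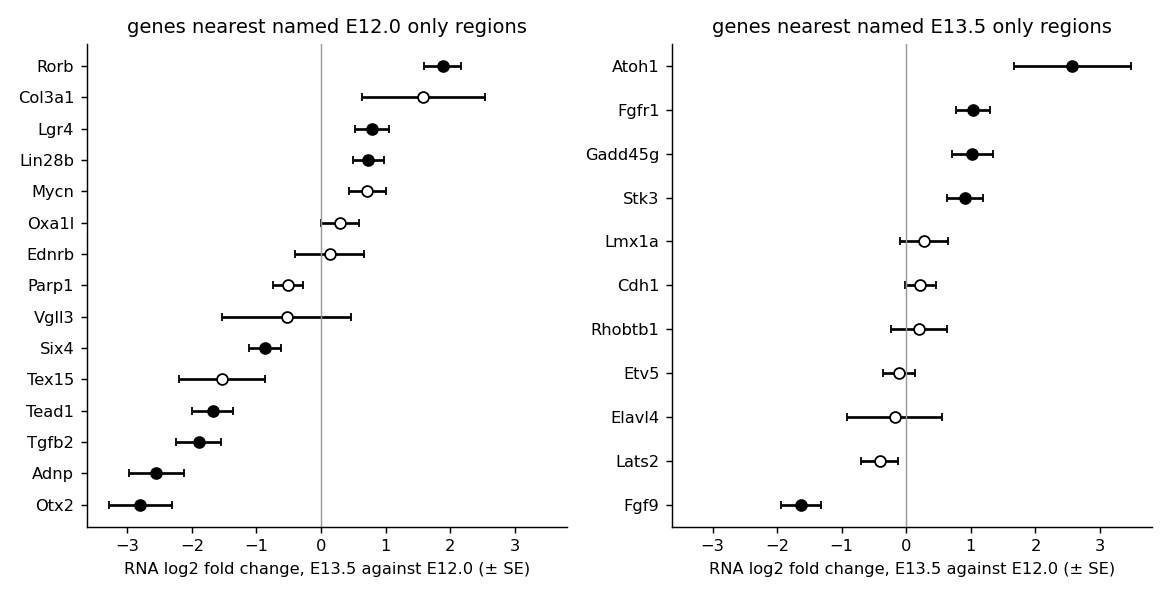
RNA log2 fold change of E13.5 against E12.0 (± SE, 2 libraries per stage) for the tested genes nearest the named E12.0-only (left) and E13.5-only (right) regions, filled where edgeR's adjusted p was under 0.05. On the left 5 filled genes lie below 0 and 3 above, and on the right 1 lies below and 4 above.

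Strength of the common regions was compared by rank, since folds of different lists are not on 1 scale. For each of the 5266 common regions, the strongest fold of each library was ranked among the common regions and the ranks turned into normal scores for limma. No region was called higher or lower (smallest limma adjusted p = 0.999), with 86 higher and 68 lower at an unadjusted p under 0.05. Ranks of the 2 stages did not overlap in 796 regions higher at E13.5 (15.1%) and 850 lower (16.1%). Exchangeable libraries, 2 against 2, would separate in 1 direction or the other with a probability of 0.333, ties aside. Such separation is therefore common without a stage difference, and these counts are no evidence of a difference. Of the 88 common regions nearest listed genes (68 genes), 13 were higher without overlap (14.8%) and 15 lower (17.0%). These shares are near those of all common regions.

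The regions with the largest rank differences are therefore descriptions. The promoter region of Arrdc4, an arrestin-domain protein, at chr7:68749072-68749952, stood at percentile 13.1 and 10.8 of the common regions at E12.0 and later, at E13.5, 87.5 and 88.2. A region at an end of Aga, a lysosomal amidase, at chr8:53511440-53512448, stood at 9.49 and 32.9 and then 90.4 and 98.7. Both genes rose in RNA, Arrdc4 from 27.2 and 29.8 to 116 and 87.9 CPM and Aga from 10.9 and 9.65 to 20.2 and 24.3. The call of Aga was lost whichever of the 4 libraries was left out, at log2 fold changes of 0.97 to 1.25. A region at an end of Endod1, an endonuclease-domain gene, at chr9:14381159-14382293, went from 7.80 and 17.6 to 88.5 and 80.1, while its RNA was at 21.6 and 27.3 CPM at E12.0 and later, at E13.5, 12.6 and 13.8 and was not called. Among listed genes the region in Nf2, the Hippo regulator Merlin, at chr11:4816594-4817905, stood at 41.3 and 17.6 at E12.0 and later, at E13.5, 74.4 and 76.6, and was open in all 3 E13.5 and no E12.0 ATAC libraries. Its RNA was at 66.9 and 66.2 CPM at E12.0 and later, at E13.5, 97.3 and 101 (edgeR adjusted p = 0.0719).

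In the other direction 2 Wnt genes led the listed genes. The region 38229 bp from Nkd1, a Wnt feedback inhibitor, at chr8:88488056-88489404, stood at 82.1 and 60.4 at E12.0 and later, at E13.5, 26.7 and 4.10. The region in Tcf7l2, a DNA-binding factor of the Wnt pathway, at chr19:55788378-55789382, stood at 91.2 and 79.1 and then 54.9 and 4.10. A region 7302 bp from Btg2, an antiproliferative gene, stood at 59.1 and 67.4 and then 16.2 and 11.5. None of the 3 genes was called in the RNA by edgeR, while DESeq2 called Btg2 lower (−0.81). Fst, the activin antagonist follistatin, had a region at 81.1 and 52.1 and then 41.4 and 7.67, and its RNA fell from 988 and 773 to 359 and 361 CPM, a call lost with limma on log2(TPM + 1) (−0.43). Vgll4, a cofactor that competes with Yap for Tead, had one at 37.4 and 67.6 and then 2.60 and 15.04, while its RNA rose from 29.3 and 49.6 to 90.7 and 75.4 CPM, a call lost without replicate 1 of either stage. The other named regions higher at E13.5 included those nearest Lum, Smad7, Rbms3, Slc1a3, Notch1 and Zfpm1, and the ranks of Slc1a3 and Zfpm1 overlapped between the stages. Notch1, a Notch receptor, stood at 10.9 and 26.96 and then 29.2 and 68.2, while its RNA fell from 189 and 163 to 83.8 and 72.0 CPM, a call lost with limma on log2(TPM + 1) (−0.24). The other named regions lower at E13.5 were nearest Fzd7, Spry1, Krt18, Fbxo28, Tspan2 and Gm30679, and of these genes Krt18 alone was called in the RNA, where it rose. Of the 11 genes named for higher ranks, 6 rose and 3 fell in RNA. Of the 10 tested genes named for lower ranks, 2 rose and 1 fell. Over all tested genes 22.4% were called higher and 23.5% lower. These few regions were picked by the size of rank differences that were not called, so no link of rank to RNA was tested.

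Covered length was then read at 20 genes, as the base pairs under intervals in the gene's span with 10 kb on each side. Fgf20, an FGF ligand of the prosensory domain, was the only one whose stages did not overlap, with 1847 and 1534 bp at E12.0 and later, at E13.5, 1309 and 462 bp. Over all protein-coding genes 5.06% were higher and 1.86% lower at E13.5 without overlap. Fgf20 RNA rose from 18.6 and 8.59 to 83.0 and 97.0 CPM (log2 fold change 2.73, SE 0.38, edgeR adjusted p = 0.000292). Replicate 1 covered more than replicate 2 at 18 of the 20 genes in both stages. Over all 21887 protein-coding genes it covered more at 11955 at E12.0 and at 15556 at E13.5, and 3657 had no interval in any library.

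The reporter genes and the Yap genes show how far the replicates spread. Sox2 had 1732 and 200 bp at E12.0 and later, at E13.5, 1237 and 0 bp, and its RNA rose from 36.9 and 39.4 to 152 and 169 CPM. Cdkn1b had 3039 and 1236 bp and then 3938 and 1875 bp, the only reporter gene held by all 4 libraries. Yap1 had 6966 and 924 bp at E12.0 and later, at E13.5, 4402 and 1258 bp, with RNA falling from 253 and 269 to 97.5 and 105 CPM, a call lost with limma on log2(TPM + 1) (−0.51). Wwtr1, the gene of the Yap paralog Taz, had 4396 and 3168 bp and then 4535 and 1869 bp, with RNA falling from 269 and 179 to 49.1 and 53.5 CPM. Tead1 had 19167 and 4323 bp and then 15354 and 3264 bp, in a window of 247429 bp that also held 1 E12.0-only and 1 E13.5-only region. For each of these 5 genes the spread between replicates exceeded the difference between stages.

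Growth and signalling genes were alike in this. Hmga2, a chromatin protein of fetal growth, had 13260 and 1024 bp at E12.0 and later, at E13.5, 11264 and 1055 bp, while its RNA fell from 2146 and 1910 to 504 and 540 CPM. Ccnd1, the G1 cyclin D1, had 2620 and 383 bp and then 1361 and 310 bp, with RNA falling from 1132 and 1137 to 351 and 350 CPM. Jag1, the Notch ligand of the prosensory domain, had 4811 and 0 bp and then 4317 and 227 bp, while its RNA rose from 229 and 169 to 867 and 971 CPM. Hes1, a Notch effector, and Id1, an inhibitor of basic helix-loop-helix factors, had 3196 and 0 bp and 4123 and 364 bp at E12.0, and 1502 and 0 bp and 2602 and 200 bp at E13.5. Their RNA fell from 60.7 and 95.8 to 15.5 and 14.0 CPM and from 667 and 758 to 127 and 192 CPM. At these loci the RNA differed by more than its replicate spread and the covered length did not.

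The remaining genes of the 20 followed the same order of libraries with few exceptions. Gata3, a transcription factor of the prosensory domain, had 5437 and 1039 bp at E12.0 and later, at E13.5, 4078 and 215 bp, while its RNA rose from 579 and 534 to 1545 and 1673 CPM. Lin28b had 10340 and 3818 bp and then 8750 and 3469 bp, and Mycn 3029 and 988 bp and then 2187 and 0 bp. Both are among the genes with E12.0-only regions. Hey2, a Notch-related repressor, had 2520 and 485 bp and then 2683 and 459 bp, and its RNA was not called. Bmp4, a ligand of the outer duct, had 603 and 423 bp and then 739 and 0 bp, and its RNA rose from 33.3 and 23.8 to 59.3 and 82.4 CPM. Lfng, a glycosyltransferase that modifies Notch, had 1058 and 400 bp and then 1813 and 0 bp, and its RNA fell from 32.9 and 36.02 to 8.002 and 6.10 CPM. Prox1, a homeobox factor of supporting cells, had 361 and 1155 bp and then 2133 and 401 bp, so that replicate 2 covered more at E12.0, and its RNA was not called.

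**Figure D5:**
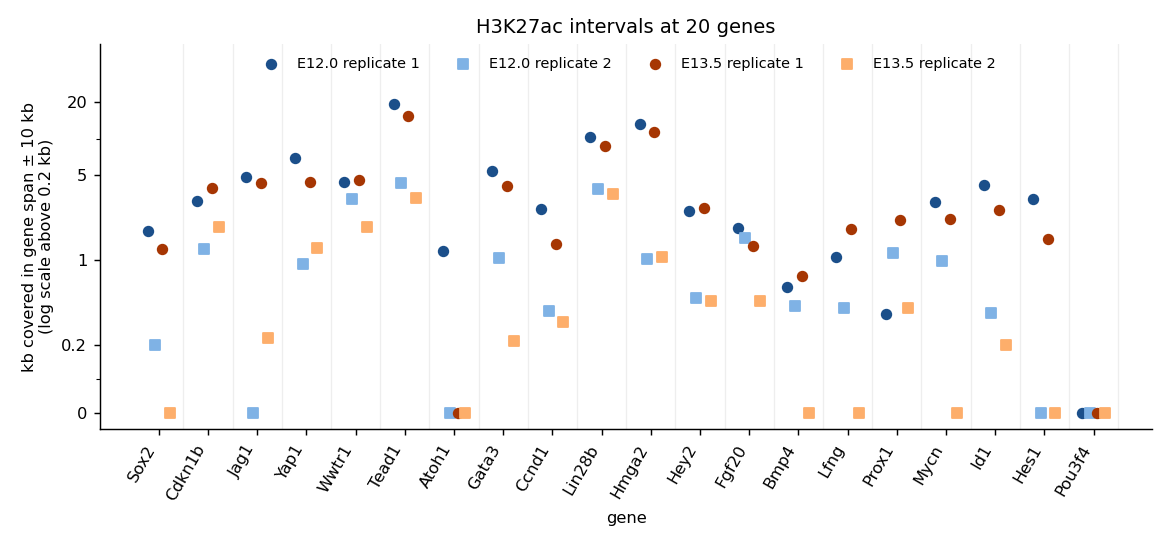
Length covered by H3K27ac intervals (kb, log scale above 0.2 kb) in the span of 20 genes with 10 kb on each side, for the 4 libraries (circles replicate 1, squares replicate 2, blue E12.0, red and orange E13.5). Circles lie above squares at most genes in both stages, and Fgf20 alone has both E12.0 points above both E13.5 points.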

How the data were processed

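The 4 H3K27ac CUT&RUN interval lists, with 2 per stage, were the data compared. Intervals of each library come with a fold over background, a −log10 p and −log10 q, and a score that was not used, as the authors deposited them, 1 list per library. RNA values are estimated counts (expected counts) per gene as the authors deposited them. Per the submitters' processing notes the tools include STAR, UMI-tools and MACS2 and the builds GRCm38 and mm10; roles and versions are not given in the sources used here.

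Lists were merged by overlap of 1 bp, and each region was given to the nearest protein-coding gene within 50 kb, using RefSeq tables (GRCm38.p6). Percentile ranks were taken within each list, and intervals of equal fold were given their mean rank. The commonest fold made up 6.15% and 16.3% of intervals at E12.0 (replicates 1 and 2) and 10.5% and 10.6% at E13.5. Ranks of common regions were tested with limma 3.58.1, and rounded counts (summing to 9412326 to 19570946 per library) with edgeR 4.0.16 (quasi-likelihood, filterByExpr, TMM, Benjamini-Hochberg adjustment, threshold 0.05) in R 4.3.3, over all features. Interval code was tested on simulated intervals. Alternatives were DESeq2 1.42.0, other thresholds, equal list lengths, a replicate block and leaving out libraries. Members and lists were chosen with earlier results of these data known. Named were, per class, the 12 strongest regions (by the lower of both ranks) near listed genes and 5 over all genes, 8 and 3 common regions per direction by rank difference, and 20 set genes. Any other gene named was chosen after its values were seen. The values of 1 gene named by this rule are not reported here.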

Additional observations from a re-analysis of the deposited data

How the results depend on the processing

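Class sizes depended on the lists. With a −log10 q of at least 2, E13.5-only, E12.0-only and common regions numbered 947, 504 and 1414. With equal numbers of intervals E13.5-only regions fell to 1785, and with 50% of a region covered common regions fell to 310. Leaving out 1 library gave 4607 to 77200 E13.5-only, 2752 to 68056 E12.0-only and 5400 to 13222 common regions, since 1 library then stands for a stage. Asking for at least 2 of 3 ATAC libraries, 24.4% and 54.9% of E12.0-only, 13.8% and 35.1% of E13.5-only and 85.6% and 97.6% of common regions were open at E12.0 and E13.5. A gene lay within 20 kb of 29.7%, 21.3% and 51.1% of them. Of the 34 named stage-only regions, 34 kept their class with equal numbers. They were chosen for high ranks and this alternative drops low-ranked intervals, so that count was largely set by the choice. Merging within 500 bp kept 26, losing those of Atoh1, Gadd45g, Lgr4, Mycn, Oxa1l, Six4, Tie1 and Vgll3. The q minimum kept 21, losing Ednrb, Etv5, Fgf9, Fgfr1, Gadd45g, Lats2, Lgr4, Lin28b, Mycn, Rorb, Six4, Tead1 and Tgfb2. Cover of 50% kept 20, losing Atoh1, Cdh1, Col10a1, Fgfr1, Gadd45g, Lats2, Lgr4, Otx2, Parp1, Rorb, Stk3, Tead1, Tex15 and Tgfb2. No rank was called under any alternative run. No common region is wider than 3083 bp, so the planned drop of wide regions changed nothing.

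RNA calls numbered 7340, with 5251 to 6050 when a library was left out. With a replicate block there were 7138 RNA calls and 0 rank calls, and of the named genes Mycn alone changed its call. Replicate numbers are not tied to a shared source by the labels (correlation of rank deviations 0.13 over 5266 regions), so the block pairs numbers only. With limma on log2(TPM + 1) these uncalled genes changed sign: Hey2 0.66, Btg2 0.13, Elavl4 0.68, Etv5 0.68, F3 0.31, Fbxo28 0.65, Fzd7 0.51, Ipmk 0.77, Lats2 0.45, Pwp1 0.31, Rnf24 0.71 and Vgll3 0.067. When a library was left out, log2 fold changes of uncalled genes crossed 0: Hey2 −0.38 to 0.017, Ednrb −0.48 to 0.71, Elavl4 −0.62 to 0.17, Etv5 −0.30 to 0.059, F3 −0.91 to 0.46, Fbxo28 −0.47 to 0.088, Fzd7 −0.69 to 0.054, Lmx1a −0.23 to 1.03, Nkd1 −0.081 to 1.09, Rhobtb1 −0.092 to 0.46, Tcf7l2 −0.16 to 0.61, Vgll3 −1.95 to 0.24 and Ddx47 −0.11 to 0.53. The cause was not tested. Read depth behind the interval lists is unknown, which limits every absence of an interval.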
